A study of Homo sapiens with 12 samples.

Results

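The genes described here are 6 matrix metalloproteases (MMP1, MMP2, MMP3, MMP10, MMP12 and MMP14) and 3 tissue inhibitors of metalloproteases (TIMP1, TIMP2 and TIMP3). They were taken by name from a table of read counts for 62069 gene identifiers, with each Ensembl identifier matched to its symbol. All 9 were matched, and 8 of them were among the 13248 genes with enough reads to be tested. The ninth, MMP12, had 0 reads in all 12 libraries under the only identifier matched to it. That match comes from a table of a later genome build than the one the reads were counted on, so no level is given for MMP12.

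RNA was sequenced from IMR90 ER:RAS cells, an established human line of lung fibroblasts of fetal origin, modified to make an oncogenic RAS protein joined to part of the oestrogen receptor. The drug 4-hydroxytamoxifen (4OHT) switches this fusion protein on, and lasting RAS activity is known to drive fibroblasts into senescence, a stable stop of the cell cycle. Cells of libraries 17 to 20 received only the solvent DMSO, those of libraries 21 to 24 received 4OHT at 100 nM, and those of libraries 29 to 32 received 4OHT together with 3-deazaadenosine (3DA). This analogue of adenosine blocks the enzyme AHCY, which clears the by-product of cellular methylation reactions. All 12 samples carried ER:RAS and were labelled passage 15 and day 6. Neither the dose of 3DA nor the day it was added is given in the sources used here. No group received 3DA without 4OHT, and no cells without ER:RAS received 4OHT. The labels do not say that the 4 replicates of a group were separate cultures, so the spread behind each p-value is that of these samples alone and could be technical.

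MMPs are zinc-dependent proteases that fibroblasts secrete, or carry on their surface, to cut collagens and other proteins of the extracellular matrix. They are made as inactive precursors, which other proteases cut to activate, and TIMPs block the active enzymes by binding their catalytic site. The amount of protease relative to inhibitor therefore bears on matrix turnover, and several MMPs belong to the secretory programme of senescent fibroblasts. The values below are RNA levels. No protein amount or enzyme activity was measured.

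Libraries held from 9451160 to 19291493 reads, and the DMSO, 4OHT and 4OHT+3DA groups averaged 11.3, 13.8 and 17.1 M reads. Libraries of a group had Spearman correlations across genes of at least 0.984. Library 31 lay apart from the other 4OHT+3DA libraries on the second principal component, so results that turn on it are also given without it. Of the 10 listed fibroblast markers, all had reads in every group, and their summed level ranged from 10558 to 11493 CPM (1 CPM is 1 read in an effective library of 1 M reads) with DMSO, from 5611 to 6188 CPM with 4OHT and from 4879.7 to 5131 CPM with 4OHT+3DA. With 4OHT 8 of the 10 were called lower and 0 higher by the test given below, beside 25.5% and 26.5% of all tested genes. The 8 include COL1A2 and COL3A1 and, named after its values were seen, COL1A1, which encode substrates of MMPs. Markers of other cells were low. The 10 epithelial markers summed to 124 to 147 CPM with DMSO, 54.99 to 59.8 CPM with 4OHT and 41.9 to 53.6 CPM with 4OHT+3DA, with the lung epithelial gene SFTPC at 0. The 10 endothelial markers summed to 7.99 to 11.4, 24.1 to 29.5 and 10.2 to 14.35 CPM in the same order, with CDH5 listed at 0 and PECAM1 at 0 under an identifier that, as for MMP12, comes from the later build and may not be the one its reads were counted under. The 10 macrophage and other immune markers, sources of MMPs in tissue, stayed between 0.461 and 4.21 CPM in every library, with ITGAM and CD3E listed at 0. The part of these marker shifts in the results below was not tested.

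With 4OHT, all 5 measured proteases and TIMP1 rose, while TIMP2 and TIMP3 fell. The 6 higher and 2 lower calls compare with 52.0% of all tested genes called in either direction, 26.5% higher and 25.5% lower (quasi-likelihood test of edgeR, p under 0.05 after Benjamini-Hochberg adjustment). MMP10, with 16 reads over the 4 DMSO libraries, had enough reads to be tested only through the groups with 4OHT. The median log2 fold change of the 8 genes was 2.04, against −0.01 for all tested genes. Addition of 3DA to 4OHT lowered MMP2 and TIMP1, and the other 6 did not pass the test, where 26.9% of all genes were called, 14.4% higher and 12.4% lower. The median of the 8 was −0.08 there, against 0.01 for all genes, and 2 calls of 8 is close to the share of all genes. Against DMSO, 4OHT+3DA cells had MMP1, MMP3, MMP10, MMP14 and TIMP1 higher and TIMP2 and TIMP3 lower, with MMP2 not called, where 51.5% of all genes were called, 27.0% higher and 24.6% lower. The 3 comparisons share their groups, so they are not independent of each other. In these bulk samples, fewer cells that make a transcript and less of the transcript per cell cannot be told apart.

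**Figure D1:**
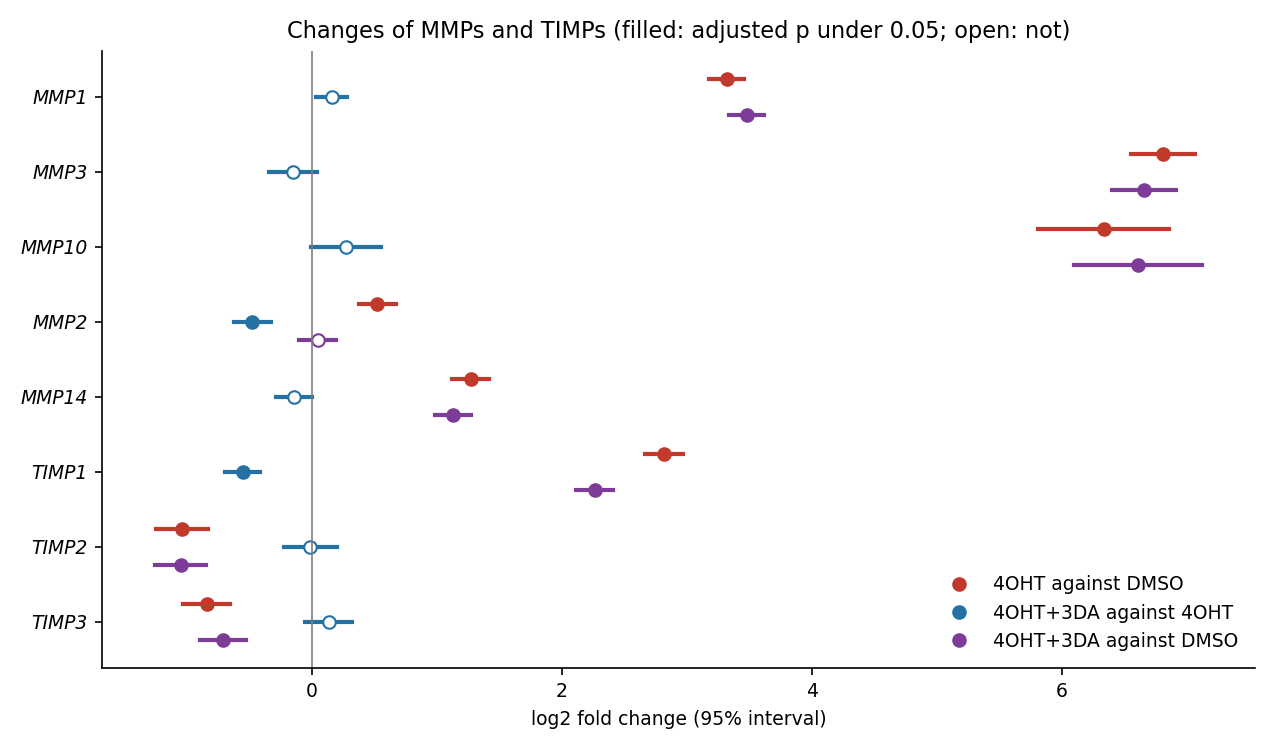
Log2 fold change of each measured MMP and TIMP (points) with its 95% interval (bars) in the 3 comparisons, with filled points for an adjusted p under 0.05 and open points for the rest. MMP3 and MMP10 lie farthest to the right in both comparisons with DMSO, while in 4OHT+3DA against 4OHT only MMP2 and TIMP1 have filled points, both to the left of 0.

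The plot of log2 fold changes sets these comparisons side by side. The points of MMP1, MMP3, MMP10, MMP14 and TIMP1 lie well to the right of 0 in both comparisons with DMSO. The interval of MMP2 in 4OHT+3DA against DMSO spans 0.

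Promoter windows of 4 of the 9 genes (MMP10, MMP14, TIMP1 and TIMP3) were matched in the RefSeq table. The 3 below cover the 250 bases before the start of a stromelysin that rose from near 0, of the inhibitor that rose, and of an inhibitor that fell. Coordinates are on GRCh38.p14: chr11:102780629-102780878 on the minus strand for MMP10, chrX:47582186-47582435 on the plus strand for TIMP1 and chr22:32801455-32801704 on the plus strand for TIMP3. Each is written 5′ to 3′ on the strand of its gene. Capitals mark matches on either strand. The motifs searched were the AP-1 site with any middle base, spelled TGANTCA, and its variant spelled TGAGTAA. Besides these came the PEA3/ETS site, spelled AGGAAG, and the TATA box, spelled TATAAA.
MMP10: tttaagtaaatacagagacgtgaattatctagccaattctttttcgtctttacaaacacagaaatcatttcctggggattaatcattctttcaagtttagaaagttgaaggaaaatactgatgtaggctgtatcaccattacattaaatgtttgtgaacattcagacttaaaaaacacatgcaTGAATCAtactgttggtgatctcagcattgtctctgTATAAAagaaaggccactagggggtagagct
TIMP1: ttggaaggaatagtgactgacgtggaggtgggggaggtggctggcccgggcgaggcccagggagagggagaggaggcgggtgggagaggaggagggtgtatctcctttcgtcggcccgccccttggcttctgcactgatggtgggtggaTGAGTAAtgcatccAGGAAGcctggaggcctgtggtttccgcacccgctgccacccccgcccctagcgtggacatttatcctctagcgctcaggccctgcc
TIMP3: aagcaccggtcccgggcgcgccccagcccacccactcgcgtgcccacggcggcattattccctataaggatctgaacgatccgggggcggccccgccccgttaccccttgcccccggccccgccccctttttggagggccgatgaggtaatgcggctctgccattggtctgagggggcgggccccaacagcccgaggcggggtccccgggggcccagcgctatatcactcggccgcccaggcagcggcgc

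AP-1, formed by FOS and JUN proteins, and ETS factors are known regulators of MMP1, MMP3 and TIMP1 and act downstream of RAS. In the MMP10 window, TGAATCA lay 67 to 61 bases before the start and TATAAA 31 to 26 bases before it. The TIMP1 window held TGAGTAA at 101 to 95 bases and AGGAAG at 87 to 82 bases before the start. The windows of TIMP3 and MMP14 held none of the 4 motifs. Among 35116 promoter windows of the same length, TGANTCA was found in 6.57%, the exact consensus TGAGTCA (a subset of those) in 4.2%, TGAGTAA in 2.21%, AGGAAG in 28.7% and TATAAA in 10.7%. The GC box GGGCGG, which the capitals leave out and 42.6% of windows hold, matched 5 times in TIMP3, 2 times in TIMP1, 1 time in MMP14 and not in MMP10. GC content was 34.4% for MMP10, 64.8% for TIMP1, 56.8% for MMP14 and 72.4% for TIMP3, against a median of 58.0%. Such matches describe the letters only and are not evidence that a factor binds.

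MMP1 (ENSG00000196611), the interstitial collagenase that starts the breakdown of fibrillar collagens, was the most abundant of the 5 protease transcripts per kilobase in every condition. In the DMSO libraries it stood at 711, 769, 678 and 675 CPM. The 4OHT libraries held 7283, 6879, 7044 and 7076 CPM, and the 4OHT+3DA libraries 7594, 7796, 8804 and 7373 CPM. Every library with 4OHT lay far above every DMSO library, a lack of overlap that all 8 genes share in 4OHT against DMSO with 51.5% of all genes, and all but MMP2 share in 4OHT+3DA against DMSO with 44.7%. For MMP1 the 4OHT+3DA libraries also lay above the 4OHT libraries by a small margin. Means were 708 ± 43.7, 7071 ± 166 and 7892 ± 632 CPM (SD, n = 4 each). The rise with 4OHT was 9.98-fold (log2 fold change 3.32, SE 0.067, edgeR adjusted p = 4.5e-18). Between 4OHT+3DA and 4OHT the log2 fold change was 0.16 (SE 0.061, 95% interval 0.03 to 0.29, adjusted p = 0.0597), which missed the threshold although the groups did not overlap, as for 25.0% of all genes. That call was made without library 29 (0.18, adjusted p = 0.0406) or library 32 (0.19, adjusted p = 0.0242), and with limma-voom, library totals or no filter on low counts (0.16 to 0.22). Without library 31, which held the highest MMP1 value, the log2 fold change was 0.10 (adjusted p = 0.136). Among 12989 genes ranked by CPM per kilobase of exon, MMP1 moved from rank 78 with DMSO to rank 10 with 4OHT and rank 9 with 4OHT+3DA. Its share of all reads was 0.0751%, 0.673% and 0.782%. The kit does not mark strand and the non-coding gene WTAPP1 overlaps MMP1, so reads of the pair cannot be fully told apart. WTAPP1 had 4, 24 and 37 reads in the 3 groups, against 34097, 370036 and 537814 for MMP1.

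MMP3 (ENSG00000149968), stromelysin 1, cuts proteoglycans, fibronectin and laminin and can activate the MMP1 precursor. It had the largest fold change of the 8 genes with 4OHT. DMSO libraries held 16.5, 22.9, 15.4 and 14.2 CPM, 4OHT libraries 2063, 1969, 1769 and 1963 CPM, and 4OHT+3DA libraries 1793, 1646, 1735 and 1811 CPM. The last 2 groups overlapped. MMP3 went from 17.3 ± 3.90 to 1941 ± 124 CPM, a 112-fold rise (log2 fold change 6.81, SE 0.12, adjusted p = 1.5e-18), and stood at 1746 ± 74.5 CPM with 3DA (log2 fold change −0.15, SE 0.092, 95% interval −0.34 to 0.04, adjusted p = 0.234). Per kilobase it rose from rank 4095 to rank 35 and was at rank 32 with 3DA.

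MMP10 (ENSG00000166670), stromelysin 2, has a substrate range like that of MMP3 and can also activate collagenase precursors. It was almost silent with DMSO, with 16 reads in the 4 libraries together (0.685, 0.450, 0.184 and 0.0733 CPM). With 4OHT the libraries held 27.8, 23.4, 28.3 and 30.9 CPM, and with 3DA 34.95, 32.4, 28.6 and 37.7 CPM. The rise with 4OHT had a log2 fold change of 6.33 (SE 0.25, 95% interval 5.81 to 6.86, adjusted p = 7.1e-14) and the largest SE of the 5 proteases. Group means of 27.6 ± 3.14 CPM with 4OHT and 33.4 ± 3.88 CPM with 3DA differed by a log2 fold change of 0.27 (95% interval −0.01 to 0.56, adjusted p = 0.143), and their libraries overlapped. Without library 31, the lowest of its group, MMP10 was called higher with 3DA (0.34, adjusted p = 0.0454). MMP3 and MMP10 are similar in sequence, and the rule for reads that match both is not given in the sources used here. MMP10 had 1455 reads with 4OHT against 101176 for MMP3, and the part of misplaced reads in the MMP10 level was not tested. Per kilobase MMP10 stayed far below the others with 4OHT, at 15.7 ± 1.78 CPM per kb against 948 ± 60.4 for MMP3 and 3589 ± 84.1 for MMP1.

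MMP2 (ENSG00000087245), gelatinase A, degrades denatured collagen and the type IV collagen of basement membranes. It was the only one of the 5 proteases called lower with 3DA than with 4OHT alone. DMSO libraries held 465.6, 424.6, 431.2 and 401.0 CPM, 4OHT libraries 618.4, 605.7, 609.0 and 641.9 CPM, and 4OHT+3DA libraries 444.4, 449.5, 390.2 and 495.6 CPM. All 4OHT libraries lay above those of both other groups, which overlapped each other. MMP2 rose with 4OHT from 431 ± 26.7 to 619 ± 16.4 CPM (log2 fold change 0.52, SE 0.071, adjusted p = 4.4e-06) and fell with 3DA to 445 ± 43.1 CPM (−0.48, SE 0.071, adjusted p = 6.9e-05). Against DMSO, the 4OHT+3DA level differed by a log2 fold change of 0.05 (95% interval −0.10 to 0.20, adjusted p = 0.604). That interval leaves room for a difference of up to 1.15-fold upward or a ratio down to 0.932. Library 31 held the lowest MMP2 value of its group, and the fall with 3DA was −0.42 to −0.53 on the log2 scale with any single library left out.

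MMP14 (ENSG00000157227), the membrane-type protease that cuts collagen at the cell surface and activates the MMP2 precursor, rose with 4OHT and did not pass the test with 3DA. DMSO libraries held 171.2, 167.2, 171.0 and 161.9 CPM, 4OHT libraries 393.3, 387.3, 422.1 and 416.1 CPM, and 4OHT+3DA libraries 390.9, 359.7, 324.1 and 393.5 CPM. The lowest value with 3DA was that of library 31. The rise from 168 ± 4.34 to 405 ± 16.99 CPM was 2.41-fold (log2 fold change 1.27, SE 0.070, adjusted p = 1e-11). With 3DA the mean was 367 ± 32.5 CPM (log2 fold change −0.14, 95% interval −0.28 to 0.00, adjusted p = 0.133), and the groups overlapped. Without library 31 the log2 fold change was −0.08 (adjusted p = 0.307). Whether the responses of MMP2 and MMP14 to 3DA differ was not tested.

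TIMP1 (ENSG00000102265), a secreted inhibitor that blocks most soluble MMPs but MMP14 only weakly, was the most abundant of the 8 transcripts per kilobase in all 3 groups. DMSO libraries held 1842, 2095, 1876 and 2183 CPM, 4OHT libraries 14534, 14692, 13736 and 13336.5 CPM, and 4OHT+3DA libraries 10539, 9373, 8591 and 9869 CPM. The 3 groups did not overlap, with the 4OHT+3DA libraries between the others. TIMP1 rose 7.04-fold with 4OHT, from 1999 ± 166 to 14074.5 ± 646 CPM (log2 fold change 2.82, SE 0.072, adjusted p = 1.5e-16). With 3DA it fell to 9593 ± 821 CPM, 0.682 times the 4OHT level (log2 fold change −0.55, SE 0.068, adjusted p = 7.2e-06), and stayed 4.80-fold above DMSO (2.26, SE 0.071). Library 31 had the lowest TIMP1 of its group, and the fall was −0.50 to −0.60 with any single library left out. Per kilobase TIMP1 ranked 19 with DMSO, 3 with 4OHT and 4 with 4OHT+3DA, and it took 0.212%, 1.34% and 0.952% of all reads.

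TIMP2 (ENSG00000035862) inhibits MMP2 and, bound to MMP14, also helps to bring the MMP2 precursor to its activator. DMSO libraries held 43.4, 47.0, 44.8 and 56.9 CPM, 4OHT libraries 23.2, 25.8, 23.2 and 21.6 CPM, and 4OHT+3DA libraries 21.8, 24.5, 23.4 and 23.1 CPM. Every DMSO library lay above every other library, while the last 2 groups overlapped throughout. The fall with 4OHT, from 48.0 ± 6.08 to 23.4 ± 1.76 CPM, had a log2 fold change of −1.04 (SE 0.0999, adjusted p = 4.7e-08). Between 4OHT+3DA (23.2 ± 1.11 CPM) and 4OHT it was −0.01 (95% interval −0.22 to 0.20, adjusted p = 0.944).

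TIMP3 (ENSG00000100234) stays bound to the matrix and inhibits ADAM17 and other sheddases besides MMPs. DMSO libraries held 100.1, 100.0, 93.9 and 94.9 CPM, 4OHT libraries 50.4, 54.0, 56.1 and 56.4 CPM, and 4OHT+3DA libraries 50.9, 70.2, 55.8 and 61.3 CPM. Again the DMSO libraries stood above all others, and library 30 was the highest of the 4OHT+3DA group. TIMP3 fell with 4OHT from 97.2 ± 3.31 to 54.2 ± 2.76 CPM (log2 fold change −0.84, SE 0.089, adjusted p = 1.7e-07). It stood at 59.6 ± 8.30 CPM with 3DA, which differed from 4OHT by 0.13 (95% interval −0.05 to 0.32, adjusted p = 0.278) and from DMSO by −0.71 (SE 0.088, adjusted p = 1.7e-06). Without library 30 the log2 fold change between 4OHT+3DA and 4OHT was 0.05 (adjusted p = 0.738). The inhibitors thus moved in opposite directions with 4OHT, TIMP1 up and the other 2 down.

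**Figure D2:**
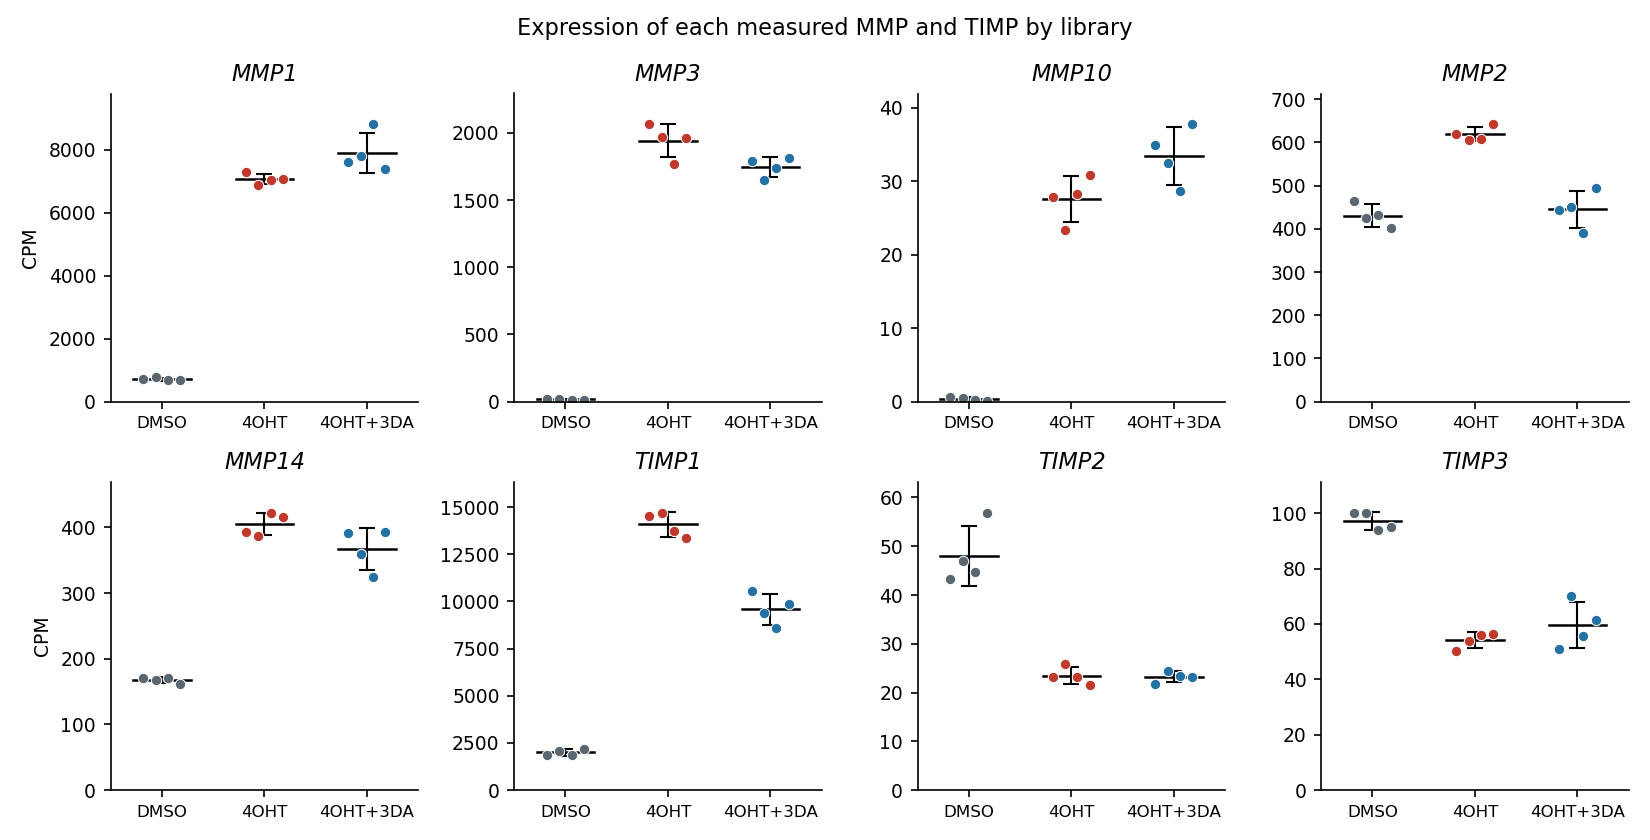
CPM of the 8 measured genes in each library (points) by group, with the mean (long bar) and SD (error bars) of 4 libraries and an axis from 0 in each panel. The 4OHT libraries of MMP2 and TIMP1 lie above those of both other groups, whereas for MMP1, MMP3, MMP10 and MMP14 the 4OHT and 4OHT+3DA libraries both lie above DMSO, and for TIMP2 and TIMP3 both lie below it.

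The plot of CPM by library shows 3 shapes. MMP1, MMP3, MMP10 and MMP14 stepped up with 4OHT and were not called different after 3DA. MMP2 and TIMP1 stepped up and then down, MMP2 to a level that was not called different from DMSO and TIMP1 only in part. TIMP2 and TIMP3 stepped down with 4OHT and were not called different after 3DA. Together the 8 genes took 0.368 ± 0.0127% of all reads with DMSO, 2.30 ± 0.0520% with 4OHT and 1.999 ± 0.0540% with 4OHT+3DA.

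Protease and inhibitor transcripts were then set against each other as a description with no test, since the members were chosen with results known. For each library the CPM per kilobase of exon was summed over the 5 measured MMPs and over the 3 TIMPs. The MMP sum was 493 ± 26.1 CPM per kb with DMSO, 4769 ± 123 with 4OHT and 5050 ± 294 with 4OHT+3DA. Its last 2 groups overlapped. The TIMP sum was 1327 ± 109, 9149 ± 419 and 6242 ± 532 CPM per kb, with no overlap between any groups.

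The ratio of the MMP sum to the TIMP sum was 0.410, 0.378, 0.384 and 0.323 in the DMSO libraries, 0.522, 0.490, 0.523 and 0.553 in the 4OHT libraries and 0.719, 0.811, 0.981 and 0.753 in the 4OHT+3DA libraries. Group means were 0.374 ± 0.0366, 0.522 ± 0.0257 and 0.816 ± 0.116, and no groups overlapped. Inhibitor transcripts exceeded protease transcripts per kilobase in all 12 libraries, by the least in library 31. Without that library the 4OHT+3DA mean was 0.761. Both readings depend on the scaling by length. As a ratio of summed CPM without it, DMSO (0.536 to 0.687) and 4OHT (0.668 to 0.755) overlapped. The 4OHT+3DA libraries then stood at 0.967, 1.09, 1.30 and 1.02. MMP1 made up 72.9% of the MMP sum with DMSO, 75.3% with 4OHT and 79.3% with 4OHT+3DA, and TIMP1 made up 97.8%, 99.8% and 99.7% of the TIMP sum. The ratio therefore reads mainly as MMP1 over TIMP1. MMP3 went from 1.70% of the MMP sum to 19.9% and 16.9%, while MMP2 went from 17.7% to 2.63% and 1.797% and MMP14 from 7.64% to 1.90% and 1.64%.

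**Figure D3:**
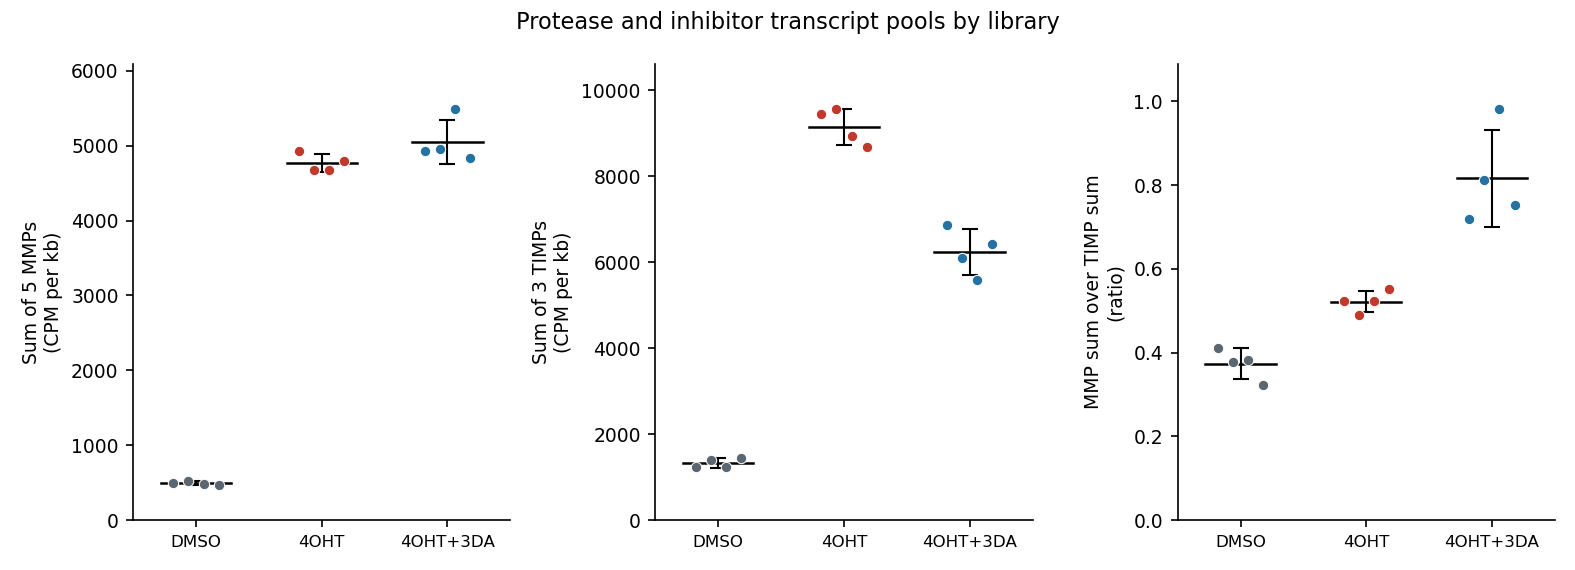
Summed CPM per kb of 5 MMPs (left), of 3 TIMPs (middle) and their ratio (right) in each library, with the mean and SD of 4 libraries per group. The MMP sums of the 4OHT and 4OHT+3DA groups overlap, the TIMP sums do not, and the ratio climbs from a mean of 0.374 with DMSO to 0.522 with 4OHT and 0.816 with 4OHT+3DA.

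A balance that weighs each gene alike had the same order of group means with steps of other sizes. The mean log2 CPM of the 5 MMPs minus that of the 3 TIMPs was −2.02 ± 0.30 with DMSO, 1.25 ± 0.10 with 4OHT and 1.33 ± 0.09 with 4OHT+3DA. It differed by 3.27 between 4OHT and DMSO and by 0.08 between 4OHT+3DA and 4OHT, where the libraries overlapped. On this scale MMP3 and MMP10 count as much as MMP1, and TIMP2 and TIMP3 as much as TIMP1. Without TIMP1, the difference between 4OHT+3DA and 4OHT was −0.13, opposite in sign. In the plot of the sums, the 4OHT and 4OHT+3DA groups are apart in the TIMP panel and overlap in the MMP panel.

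Single pairs known to act together were compared as log2 ratios of CPM in each library. Gene length cancels in the differences between groups, so only those differences are read. MMP1 to TIMP1 was −1.49 ± 0.14 with DMSO, −0.99 ± 0.08 with 4OHT and −0.28 ± 0.23 with 4OHT+3DA, a difference of 0.50 and then 0.71. MMP3 to TIMP1, a pair added after the values were seen, differed by 4.00 between 4OHT and DMSO and by 0.40 between 4OHT+3DA and 4OHT. Neither pair had overlapping groups.

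For the surface pathway of MMP2 activation, MMP14 to TIMP2 was 1.81 ± 0.21 with DMSO, 4.10 ± 0.16 with 4OHT and 3.97 ± 0.18 with 4OHT+3DA, and the last 2 groups overlapped. MMP2 to TIMP2 was 3.17 ± 0.26, 4.72 ± 0.14 and 4.25 ± 0.16, with no overlap. It was thus lower with 3DA than with 4OHT by 0.47, while both pairs with TIMP1 were higher.

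**Figure D4:**
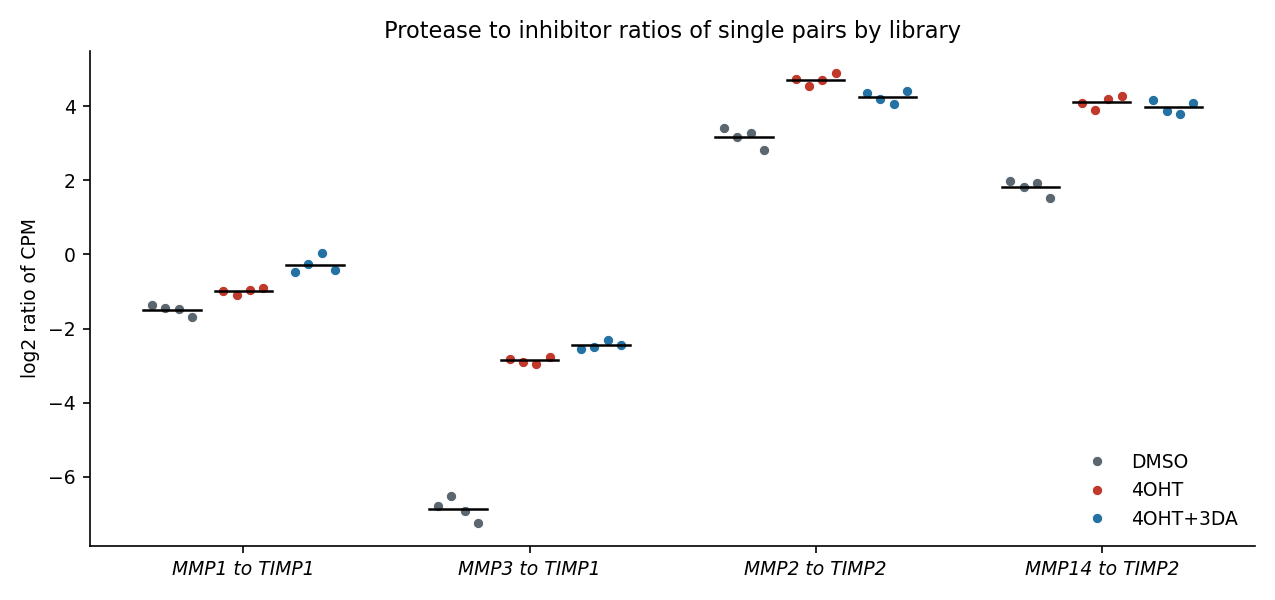
Log2 ratio of CPM of 4 protease and inhibitor pairs in each library (points), with the mean of 4 libraries per group (bars). Both ratios to TIMP1 step up at 4OHT and again at 4OHT+3DA, whereas MMP2 to TIMP2 steps up at 4OHT and is lower at 4OHT+3DA, and MMP14 to TIMP2 overlaps between those groups.

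In the plot of pair ratios, the pairs with TIMP1 and those with TIMP2 follow different orders of the groups. Ratios to TIMP1 are in the order DMSO, 4OHT, 4OHT+3DA for every library, and ratios to TIMP2 are highest with 4OHT on average. Both pairs with TIMP1 share that gene, which was itself lower with 3DA than with 4OHT (log2 fold change −0.55). For MMP2 to TIMP2, MMP2 was lower with 3DA (−0.48) and TIMP2 was not called (−0.01).

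MMP1, MMP3, MMP10 and MMP12 lie in a cluster of MMP genes on chromosome 11. In the order of the annotation the cluster and its flanks run YAP1, BIRC3, BIRC2, TMEM123, MMP7, MMP20, MMP27, MMP8, MMP10, WTAPP1, MMP1, MMP3, MMP12, MMP13, DCUN1D5 and DYNC2H1. Of these 16 genes 10 were tested. With 4OHT 5 were called higher and 2 lower, beside 26.5% and 25.5% of all genes. Of the 5, 4 were MMPs of the cluster. MMP8 and MMP10 passed the filter on low counts only through the groups with 4OHT. The numbers called are thus partly set by that filter. MMP8, neutrophil collagenase, had 1 read in all DMSO samples and 43 in those with 4OHT, 39.4 times as many after scaling (95% counting interval 6.71 to 1593), and 50 reads with 3DA. Around the cluster the changes were smaller. DCUN1D5, a factor of cullin neddylation, rose from 67.6 ± 5.47 to 127 ± 4.34 CPM (log2 fold change 0.91, SE 0.11), and TMEM123, a membrane protein gene, fell from 169 ± 13.0 to 100.3 ± 4.51 CPM (−0.75, SE 0.13). BIRC3, an inhibitor of apoptosis that NF-kB induces, had a log2 fold change of −1.30 (SE 0.30) and was named after its values were seen. It had only 250 reads over the 12 libraries, against 20791 for DCUN1D5 and 23825 for TMEM123. YAP1, BIRC2 and DYNC2H1 were not called.

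Between 4OHT+3DA and 4OHT, none of the 4 tested MMPs of the cluster was called. TMEM123 rose (0.60, SE 0.13, adjusted p = 0.00271), by 0.38 without library 31 (adjusted p = 0.000546). BIRC3 fell (−1.22, SE 0.36, adjusted p = 0.017), though its call ended after thinning (−1.05) or without 4OHT library 23 (−1.03) or 24 (−1.12). DCUN1D5 was called higher (0.32, SE 0.11, adjusted p = 0.0373) with overlapping groups, and its call ended without any of 7 single libraries, with 0.17 (adjusted p = 0.104) without library 31. MMP7, matrilysin, had 0 reads with DMSO and 16 in each of the other groups, from 3 libraries of each. With 3 reads over the DMSO group as a floor, its 4OHT reads were 4.89 times that floor after scaling. MMP13, collagenase 3, had 0, 7 and 13 reads, and its 4OHT reads, from 3 libraries, were 2.14 times the same floor. MMP20 had 0, 2 and 0 reads and MMP27 0, 0 and 1, too few for a fold. The ratios to the floor leave out the counting error of the 4OHT reads, so they are not lower bounds. The counting interval of MMP8 covers counting error only.

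**Figure D5:**
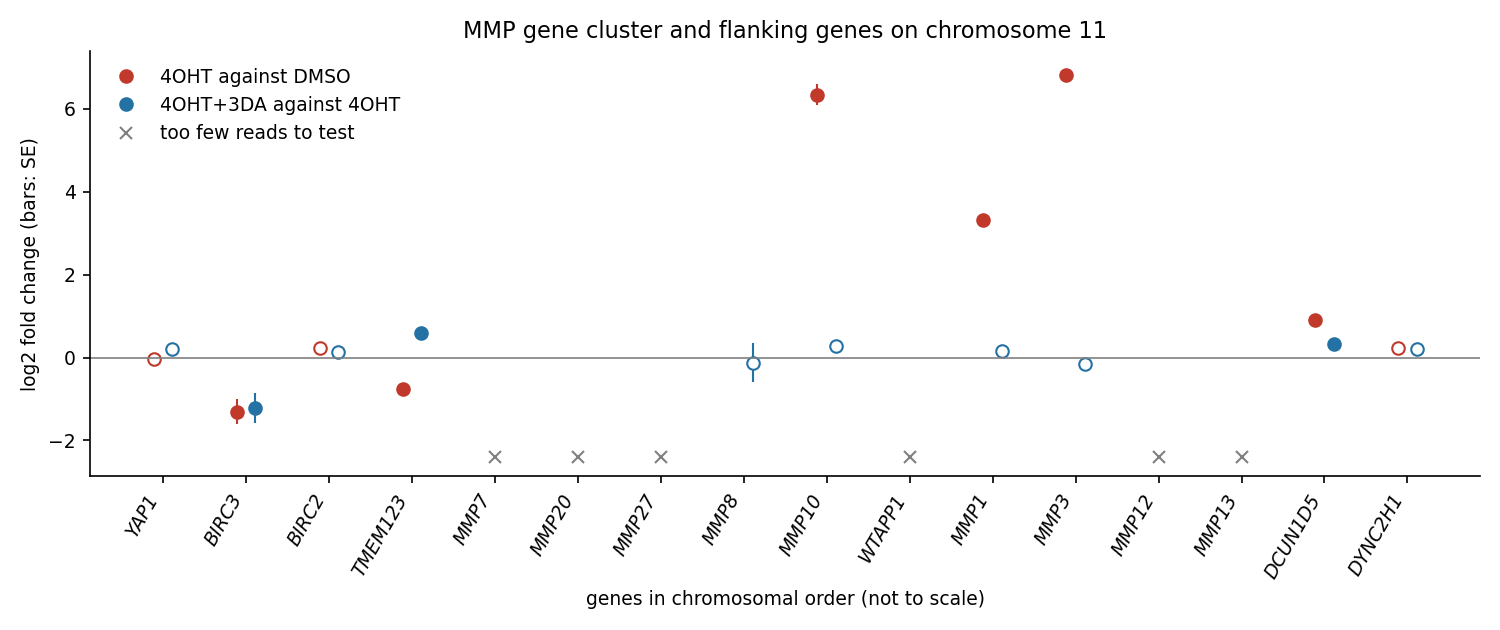
Log2 fold change (points) and SE (bars) of genes in chromosomal order across the MMP cluster, filled where the adjusted p is under 0.05. Crosses mark genes with too few reads to test under the identifier matched to them. For MMP12 that identifier may not be the one its reads were counted under. MMP10, MMP1 and MMP3 stand at 6.33, 3.32 and 6.81 for 4OHT against DMSO and near 0 for 4OHT+3DA against 4OHT, and no 4OHT against DMSO point is drawn for MMP8, which had 1 DMSO read.

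The plot along the cluster shows the large rises at MMP10, MMP1 and MMP3, with flanking genes on either side within about 1.30 log2 units of 0. Genes with crosses, MMP12 among them, carry no value.

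Beyond the named members, the rest of the MMP family was low. The 17 further family genes include MMP7, MMP8, MMP13, MMP20 and MMP27 of the cluster above. Of the 17, 16 were matched and 7 passed the filter on low counts, MMP8 only through the groups with 4OHT. With 4OHT 2 of the 7 were called higher (MMP8 and MMP16) and 2 lower (MMP11 and MMP19), a share close to that of all genes (26.5% and 25.5%), with a median of −0.04. MMP16, a membrane-type protease like MMP14, rose from 11.6 ± 2.77 to 23.3 ± 2.95 CPM (log2 fold change 1.01, SE 0.16) and again with 3DA to 33.8 ± 6.18 CPM (0.54, SE 0.15, adjusted p = 0.0126). MMP11, stromelysin 3, fell from 3.41 ± 0.276 to 1.94 ± 0.559 CPM (−0.82, SE 0.25) and was higher with 3DA at 3.68 ± 0.773 CPM (0.93, SE 0.24). MMP19 fell from 15.3 ± 3.39 to 9.89 ± 1.30 CPM (−0.63, SE 0.16) and with 3DA to 6.99 ± 1.16 CPM (−0.50, SE 0.17, adjusted p = 0.0354). The second fall of MMP19 lost its call when library 21, 23, 29 or 31 was left out (−0.45 to −0.42), with library totals (−0.44) and after thinning (−0.43). MMP15, MMP17 and MMP24 were not called in any of the 3 comparisons.

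MMP9, gelatinase B, had 6, 23 and 5 reads in the 3 groups and was not tested. Its ratio of 4OHT to DMSO was 3.51 (95% counting interval 1.39 to 10.55) and of 4OHT+3DA to 4OHT 0.168 (0.0498 to 0.451). MMP2 was thus the gelatinase seen at depth here, with 32466 reads in the 4OHT libraries.

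Genes that activate MMPs or control them outside the cell moved in both directions. Of 24 listed 22 were tested, and with 4OHT 10 were higher and 7 lower, beside 26.5% and 25.5% of all genes, with a median of 0.10. The plasminogen activators PLAU (975 ± 39.6 to 3375 ± 162 CPM) and PLAT (248 ± 9.26 to 1035 ± 66.2 CPM), which make the plasmin that cuts MMP precursors, rose with log2 fold changes of 1.79 (SE 0.070) and 2.06 (SE 0.079). TFPI2, a matrix-bound inhibitor of plasmin and some MMPs, rose from 48.4 ± 2.88 to 1342 ± 75.3 CPM (4.79, SE 0.10). ITGB3, the integrin subunit that can dock MMP2 on the cell surface, rose from 7.17 ± 1.65 to 44.6 ± 3.52 CPM (2.63, SE 0.14). Named after their values were seen, the fourth inhibitor TIMP4 fell from 4.1 to 2.1 CPM (−0.96) and RECK, a membrane-anchored inhibitor of MMP2, MMP9 and MMP14, fell from 102 to 45.8 CPM (−1.16), both in the direction of TIMP2 and TIMP3.

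With 3DA 6 of the 22 were higher and 6 lower, beside 14.4% and 12.4% of all genes, with a median of −0.05. CAV1, caveolin of the membrane where MMP14 is taken up, rose from 565 ± 21.7 to 805 ± 83.4 CPM (0.51, SE 0.069). THBS2, a matrix protein that helps to clear MMP2, rose from 22.7 ± 2.09 to 31.6 ± 4.07 CPM (0.47, SE 0.11). The surface protease ADAM10, which TIMP1 and TIMP3 inhibit, rose from 164 ± 10.1 to 225 ± 43.1 CPM (0.46, SE 0.10). CAV1 and ADAM10 had fallen with 4OHT (−1.63, SE 0.071, and −0.48, SE 0.10), whereas THBS2 was not called there. In 4OHT+3DA against DMSO, CAV1 was still lower (−1.12, SE 0.070), and ADAM10 was not called (−0.03, SE 0.10). Named after their values were seen for this comparison, PLAU, PLAT and PLAUR, the receptor of the PLAU product, were each called lower (−0.30 each).

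Among matrix substrates of MMPs, 18 of 19 listed were tested, and with 4OHT 10 fell and 3 rose, beside 25.5% and 26.5% of all genes, with a median of −0.42 against −0.01 for all genes. The proteoglycan DCN, cut by MMP2 and MMP3, had a log2 fold change of −2.70 (SE 0.073, 716 ± 21.5 to 109.6 ± 9.61 CPM), the basement membrane proteoglycan HSPG2 −1.78 (SE 0.16), and the fibrillar collagens COL3A1 and COL1A2, substrates of MMP1, −1.55 (SE 0.082) and −1.40 (SE 0.067). These substrate genes fell in the samples in which MMP1, MMP2, MMP3 and MMP14 rose. With 3DA 4 fell and 1 rose, beside 12.4% and 14.4% of all genes. LUM fell from 48.3 ± 2.88 to 25.4 ± 3.16 CPM (−0.93, SE 0.092), COL1A2 from 1253 ± 77.0 to 859 ± 62.9 CPM (−0.54, SE 0.066) and LAMA4 from 68.8 ± 4.81 to 52.4 ± 4.91 CPM (−0.39, SE 0.087). LUM and COL1A2 had also fallen with 4OHT, whereas LAMA4 had risen (0.58, SE 0.088). Named after their values were seen, SPARC was the fourth that fell (−0.38, SE 0.056), as it had with 4OHT, and TNC the one that rose (0.25, SE 0.087, adjusted p = 0.0424). The call of TNC ended without library 18, 19, 21, 22, 23, 30 or 32 (0.18 to 0.25), with 8 libraries (0.25) and after thinning (0.23).

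Factors known to act on MMP promoters were tested for all 16 listed, and with 4OHT 7 rose and 3 fell, beside 26.5% and 25.5% of all genes, with a median of 0.20. Among AP-1 subunits, whose motif is printed above for MMP10, JUNB rose from 17.9 ± 0.917 to 48.6 ± 2.12 CPM (1.44, SE 0.096) and FOS from 1.34 ± 0.453 to 3.34 ± 0.680 CPM (1.32, SE 0.28), while FOSL2 fell from 50.6 ± 1.999 to 20.04 ± 1.10 CPM (−1.34, SE 0.091). CEBPB, a factor of inflammatory genes, rose from 3.56 ± 0.953 to 7.59 ± 0.596 CPM (1.07, SE 0.19). With 3DA 1 rose (2 without library 22 or 29) and 3 fell, beside 14.4% and 12.4% of all genes, with a median of −0.08. FOSL2 fell further to 10.9 ± 0.899 CPM (−0.87, SE 0.096), the ETS factor ETV4 fell from 29.9 ± 2.46 to 17.97 ± 2.94 CPM (−0.74, SE 0.12), and the ETS factor ELK3 rose from 54.6 ± 5.47 to 84.2 ± 19.99 CPM (0.62, SE 0.13).

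As a description, the genes whose log2 CPM followed each member most closely over the 12 libraries were named from 11168 candidate genes. Since the 12 libraries fall into 3 groups, these values mostly reflect the group means. MMP1 was closest to WLS (Pearson r = 0.999) and TFPI2 (0.999), MMP3 to CXCL8 (0.999) and BPGM (0.998), and MMP10 to GFPT2 (0.996) and G0S2 (0.994). TIMP1 was closest to GDF15 (0.999) and ERCC1 (0.997), with GDF15 at 42.0 ± 3.30 CPM with DMSO, 831 ± 25.8 CPM with 4OHT and 468 ± 44.5 CPM with 4OHT+3DA. MMP14 was closest to PDLIM4 (0.998) and TOMM34 (0.996). TIMP2 was closest to ANKRD13A (0.993) and SYNGR1 (0.984), and TIMP3 to ANO4 (0.987) and SLC44A2 (0.976). MMP2 was closest to SEC14L1 (0.983) and BRD2 (0.980), and SEC14L1 stood at 61.0 ± 5.10, 90.1 ± 3.28 and 58.7 ± 6.74 CPM. Among the members, MMP2 was the least like the rest, with r of 0.491 to 0.665 to the other proteases and TIMP1, while MMP1 and MMP3 had an r of 0.997.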

How the data were processed

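RNA-seq libraries of total RNA were made with Smart-Seq2 and Nextera XT, per the labels' protocols. Gene-level read counts, raw and whole, were deposited by the authors. The submitters' processing notes name the builds hg19 and GRCh37 and the tools featureCounts 1.18.0, TopHat2 2.0.11 and CASAVA 1.8.2. Whether strand was used, and what became of reads matching several genes, is not given in the sources used here. Libraries carry no molecular identifiers. Counting intervals cover counting error only. Intervals of log2 fold changes come from the edgeR fit and include the spread between libraries.

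Columns were matched to samples by name and grouped by the labelled treatment. Symbols came from a table of GRCh38, which matched 50127 of 62069 identifiers and 140 of 141 list entries. The main test was edgeR 4.0.16 (R 4.3.3): filterByExpr with a minimum count of 10, TMM factors, 1 quasi-likelihood model of 12 libraries (9 residual degrees of freedom), and Benjamini-Hochberg adjustment over 13248 genes with a threshold of 0.05. The script was tested on simulated counts, with changed genes drawn at random from all tested genes. Of 1.5-fold changes it recovered 52.2% (4OHT against DMSO), 53.7% (4OHT+3DA against 4OHT) and 76.1% (4OHT+3DA against DMSO). Of 4-fold changes it recovered 98.5%, 93.9% and 97.0% in the same order. False calls numbered 11, 14 and 9. CPM per kb used union exon lengths of GENCODE 29. A prior count of 2 entered log values. The balance was planned on 6 MMPs and computed on 5, without MMP12.

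Members and lists were chosen with earlier results of these data known. Named genes are all members, the tested MMP family genes, up to 4 (4OHT against DMSO) and 3 (4OHT+3DA against 4OHT) genes per list with the largest called changes and mean log2 CPM above 1, and the 2 genes most like each member. Other list genes given with a called change are marked as named after their values were seen. Alternatives were DESeq2 1.42.0, voom in limma 3.58.1, RLE factors, library totals, 2 filters, 8 libraries, adjusted p under 0.01, thinning to 9451160 reads and each library left out. Alternatives for list genes, sums and extra pairs were added after the data were seen.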

Additional observations from a re-analysis of the deposited data

How the results depend on the processing

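Of 504 alternative values of the 8 members' log2 fold changes, 492 kept their direction and their side of the threshold, including all 168 for 4OHT against DMSO. In 4OHT+3DA against 4OHT the members called higher numbered 0, but 1 (MMP1) with library totals (0.22, adjusted p = 0.00916), no filter on low counts (0.19, adjusted p = 0.0164) or limma-voom (0.16, adjusted p = 0.0382), and 0 to 1 with single libraries left out. TIMP2 and MMP2 changed sign where they were not called. TIMP2 in 4OHT+3DA against 4OHT was 0.0482 with library totals, 0.0152 with no filter, and 0.0394 and 0.0190 without 4OHT library 22 or 4OHT+3DA library 29 (−0.0492 to 0.0394 over all left-out libraries). MMP2 in 4OHT+3DA against DMSO was −0.0485 with library totals and −0.00492 without library 32 (−0.00492 to 0.108 over all left-out libraries). The cause was not tested.

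The mean-of-logs balance depended on how genes were pooled. As log2 of summed CPM, its difference was 0.202, 0.609 and 0.811 for 4OHT against DMSO, 4OHT+3DA against 4OHT and 4OHT+3DA against DMSO, and with length scaling 0.487, 0.636 and 1.12. Without MMP3 the differences with DMSO were 2.46 and 2.56. Without TIMP1 they were 4.52 and 4.39, and 4OHT+3DA against 4OHT was −0.126. Left-out libraries gave 3.13 to 3.36, 0.0332 to 0.121 and 3.21 to 3.44.

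Over all genes, an adjusted p under 0.01 left 1044 higher and 900 lower for 4OHT+3DA against 4OHT. With library totals the median of all genes was −0.17 for 4OHT against DMSO and calls split into 2387 higher and 4723 lower, against 3511 and 3378. For 4OHT+3DA against 4OHT the split was 2535 and 1207, against 1909 and 1649, and for 4OHT+3DA against DMSO 2801 and 4023, against 3572 and 3253. Left-out libraries gave 1439 to 2161 higher and 1272 to 1796 lower for 4OHT+3DA against 4OHT. Of 620 alternative values of the 31 list-gene changes named by rule, 605 kept their call. So did 205 of 217 for 11 others given in the text (MMP8 and 10 named after their values were seen). MMP8 had a value in only 17 alternatives, against 20 for COL1A1. With a mean CPM of at least 1, 8 libraries or thinning, 1 of the other MMP family genes was called higher with 4OHT, not 2. No paired analysis was possible because the groups share no replicate numbers. With 16 DMSO reads, depth limits the fold of MMP10.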

Other observations

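A few MMP genes had reads mainly in the DMSO libraries, too few to test. MMP23B had 8, 3 and 0 reads in the DMSO, 4OHT and 4OHT+3DA libraries together, MMP21 had 6, 1 and 0, and MMP26, matrilysin 2, had 5, 0 and 0. MMP25, a membrane-type protease of leukocytes, had 1 read in each group.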
